A study of Homo sapiens with 12 samples.

Results

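The 33 genes described here are long genes whose transcripts took a larger share of the library after lurbinectedin. They were chosen by a rule on measured values: a genomic span of 80 kb to under 250 kb, a control mean of 1 CPM or more, and a lurbinectedin mean at least 2 times the control mean. CPM, the usual scaling of raw counts, is the count of a gene as a share of all counts of its library, brought to a common total. Of the 60649 genes in the files, 2479 had that span and control level, and 33 of these (1.33%) reached the 2-fold limit. Among the 13158 genes of any span at 1 CPM or more in control, 9.58% reached it. The level of lurbinectedin over control therefore chose the genes, and it is described below with no test.

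RNA was sequenced from spheroids of SBC3, an established human small cell lung cancer line, in 12 libraries. Each of 4 groups had 3 libraries: control, teriflunomide alone, lurbinectedin alone, and teriflunomide with lurbinectedin, called the combination below. The libraries hold polyadenylated RNA of 1 cell line, and the labels state neither the dose of a drug nor how long it was applied. Nothing says that the replicates came from separate cultures, so p-values measure the spread between these libraries, which may be technical.

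Lurbinectedin binds DNA in the minor groove and blocks elongating RNA polymerase II, which is then degraded. A polymerase must cross the whole of a gene to finish a transcript, so long genes are the ones known to lose most RNA when elongation is blocked. DNA damage of this kind also stabilises p53, a transcription factor that switches on genes of cell cycle arrest, DNA repair, metabolism and cell death. Teriflunomide inhibits DHODH, an enzyme of pyrimidine synthesis, and pyrimidine shortage is itself known to engage p53.

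Totals ranged from 23206414 to 33222162 counts per library. Mitochondrially encoded genes took 22.6% of the counts in teriflunomide replicate 3 and 24.9% in combination replicate 2, more than in the other 10 libraries. By group the share was 6.26% to 7.17% in control, 8.42% to 22.6% with teriflunomide, 13.8% to 17.0% with lurbinectedin and 13.1% to 24.9% in the combination. It thus moved with the contrast that chose the genes. With CPM over nuclear counts only, the rule gave 42 genes, with all 33 among them. Of nuclear counts the 33 genes held a mean of 0.0876% in control and 0.287% with lurbinectedin. The part of the mitochondrial share in the other results was not tested. Replicates of a group correlated at Pearson's r of 0.977 to 0.995 over genes, on a log scale, and no pair was as alike as sampling noise alone allows. Of 12 markers of small cell lung cancer, 5 had at least 1 CPM in control (NEUROD1, YAP1, SYP, DLL3 and ENO2), while INSM1, GRP and UCHL1 were at 0 in every library. KRT8 was the only epithelial marker of 4 at that level, and EPCAM was at or near 0. Of 5 fibroblast markers, COL1A1 and COL1A2 were high in control and DCN and LUM were at or near 0. The summed fibroblast markers were 555 to 600.1 CPM in control and 166 to 210.4 CPM with lurbinectedin, and the summed epithelial markers 253 to 279 CPM and 374 to 413 CPM. The summed small cell lung cancer markers were 325 to 342 CPM in control and 142 to 167 CPM with lurbinectedin. That fall came from YAP1, whose mean went from 268 to 60.1 CPM, and to a small extent from NEUROD1. Mean SYP rose from 18.3 to 28.6 CPM and mean ENO2 from 42.0 to 64.6 CPM. Mean DLL3 was nearly level, at 2.13 and 2.17 CPM, so the sum does not describe these markers singly. The part of these shifts in the results was not tested. No marker of leukocytes or endothelium reached 1 CPM in control.

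Together the 33 genes held 0.0817% ± 0.00124 (SD, n = 3) of all counts in control and 0.104% ± 0.00597 with teriflunomide. With lurbinectedin they held 0.241% ± 0.00691, and with the combination 0.246% ± 0.0144. The lowest library with lurbinectedin lay above the highest one without it. The other 2446 genes of the same span and control level moved the other way, from 18.0% ± 0.149 of counts in control to 6.80% ± 0.466 with lurbinectedin. Over the whole span class the median ratio of lurbinectedin to control was 0.273, 77.0% of its genes were at or below 0.5, and 160 genes lay above 1. CPM is a share of a library, so a rise in CPM may reflect more of a transcript or less of the others, and in such bulk samples fewer cells and less RNA per cell cannot be told apart.

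The share of genes at 2-fold or more fell with span in both pairs of groups. With lurbinectedin over control it was 18.7% under 10 kb, 13.6% from 10 to under 30 kb, 4.88% from 30 to under 80 kb, 1.33% from 80 to under 250 kb and 0.690% from 250 kb. In the combination over teriflunomide, in libraries that the choice of the 33 genes did not use, the same classes gave 22.0%, 16.5%, 4.93%, 1.19% and 0.513%. The 33 genes are the count behind 1.33% in the first pair of groups.

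**Figure D1:**
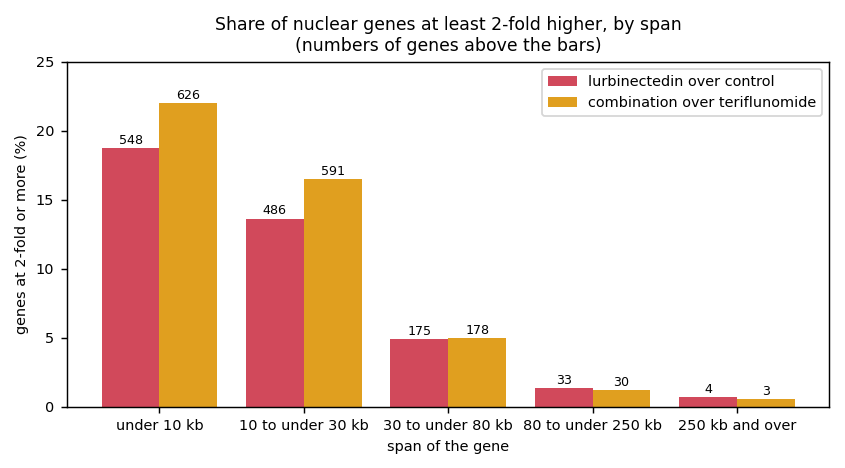
Percent of nuclear genes (y axis) whose mean CPM was at least 2-fold higher, by genomic span (x axis), among genes of at least 1 CPM in the lower group named, control or teriflunomide. Numbers of genes stand above the bars, and the share falls from 18.7% under 10 kb to 1.33% at 80 to under 250 kb for lurbinectedin over control, where the 33 genes are.

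The ratio of lurbinectedin to control had a median of 2.88 over the 33 genes. It was 4 or more in 10 of them and between 2 and 3 in 17. SGK1 (25.8) and MORC4 (17.7) stood far above the next, CRISPLD2 (7.38). Their control means of 1.77, 1.30 and 1.08 CPM lay near the limit of 1 CPM, where the median over the 33 genes was 6.73 CPM. The control libraries of CRISPLD2 ran from 0.594 to 1.60 CPM, so ratios this near the limit are uncertain in size. At the other end, FHL2 (2.05), ENSG00000286406 (2.09) and ZMAT3 (2.21) lay near the limit, and GINS3 (1.99), LINC02693 (1.98) and ARAP1 (1.95) fell just short of it. In all 33 genes the lowest lurbinectedin library was above the highest control library, which the rule makes likely and which supports nothing further.

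**Figure D2:**
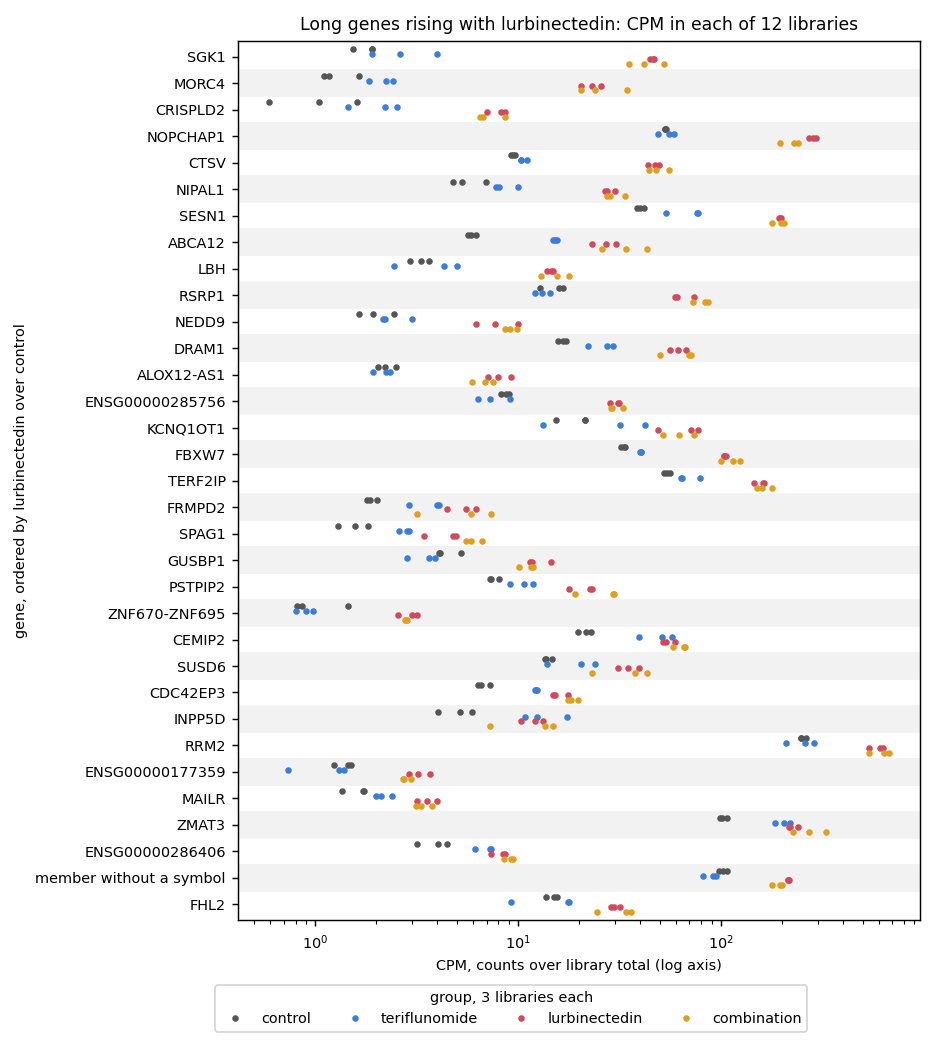
CPM (x axis, log scale) of each of the 33 genes (y axis, ordered by lurbinectedin over control) in each library. Points are single libraries, 3 per group, and no error bars are drawn. The lurbinectedin libraries of SGK1 sit between 44.6 and 46.6 CPM against 1.53 to 1.90 in control, while those of FHL2 sit between 28.7 and 32.0 against 13.8 to 15.5.

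The comparison of the combination with teriflunomide asks the same question, what lurbinectedin does to these genes, in 6 libraries that the rule did not use. In edgeR's quasi-likelihood test over 16683 genes, all 33 genes passed the expression filter, 32 were called higher (Benjamini-Hochberg adjusted p under 0.05) and 0 lower. Over all genes tested 35.2% were called higher and 35.8% lower. Over the 2479 genes of the span class, the 33 included, 5.2% were called higher. Among the other 2446 genes of that class, 3.97% were called higher and 87.5% lower. The median log2 fold change was 1.38 in the 33 genes, with a range of -0.12 to 4.07, against -1.5 in the other long genes and 0.04 in all genes tested. Every combination library was above every teriflunomide library in 30 of the 33 genes, against 29.6% of all genes tested. The exceptions were SUSD6, FRMPD2 and INPP5D. Without teriflunomide replicate 3, the library with a high mitochondrial share, 32 genes were called and the median was 1.56; without combination replicate 2, the other such library, 30 were called and the median was 1.41.

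**Figure D3:**
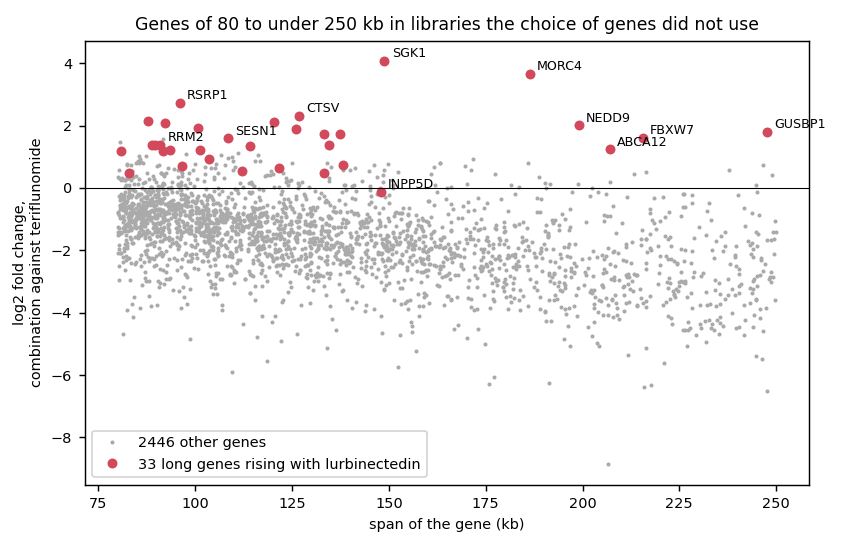
Log2 fold change of the combination against teriflunomide (y axis) by genomic span in kb (x axis) for the 33 genes (red) and the 2446 other genes of the same span and control level (grey); each point is 1 gene and the line marks no change. The red points lie above 0 except INPP5D at -0.12, while the grey points have a median of -1.5.

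The ratio of mean CPM in the combination over teriflunomide had a median of 2.45, was at least 2 in 25 genes and below 2 in 8, and was lower than the ratio of lurbinectedin to control in 25. The rule chose the genes for a high ratio of lurbinectedin to control, which favours a lower value in libraries it did not use, so nothing is read from that difference. Across the 33 genes the log2 values of both ratios correlated at Pearson's r = 0.859 (n = 33 genes, no sample in common). This is a correlation across genes, which are not independent replicates, and 1 of its axes is the ratio that chose them. SGK1 and MORC4 had the largest ratios in both pairs. Their log2 ratios of lurbinectedin to control were 4.69 and 4.14, with CRISPLD2 next at 2.88, so they weigh heavily in r. It was not computed without them, and nothing is read from it.

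Of the 33 genes, 6 are on a list of p53 targets written from general knowledge: SESN1, DRAM1, ABCA12, FBXW7, ZMAT3 and SUSD6. SESN1, a sestrin that restrains mTORC1 signalling when amino acids are short, spans 108.383 kb (hg38, chr6:108986437-109094819, minus strand). Its control libraries were at 41.6, 39.9 and 38.6 CPM and its teriflunomide libraries at 77.0, 76.1 and 53.5 CPM. Lurbinectedin gave 195, 197 and 196 CPM, and the combination 204, 179 and 197 CPM. The lurbinectedin and combination libraries overlapped each other and lay far above the other 6, and every teriflunomide library was above every control library. SESN1 rose in the combination against teriflunomide by 1.60 on the log2 scale (SE 0.0969, edgeR adjusted p = 5.64e-09).

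RefSeq promoter windows (GRCh38.p14) matched 24 of the 33 genes, with 42 start sites in all, and 10 of the genes had more than 1 start. For SESN1, the 150 bases before the outermost start (chr6:109094847-109094996, minus strand) and before a start 85.8 kb further in (chr6:109008989-109009138) are shown because they are so far apart: a polymerase entering at the inner start has 22.5 kb to cross in the shortest annotated transcript instead of 108 kb. Capitals in these and the later sequences mark a p53 half-site, the consensus decamer bound by a pair of p53 subunits, or the TATA box letters TATAAA, on either strand.
SESN1 outer start: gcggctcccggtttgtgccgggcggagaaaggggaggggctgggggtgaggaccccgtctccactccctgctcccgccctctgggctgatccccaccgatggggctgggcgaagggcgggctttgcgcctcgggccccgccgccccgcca
SESN1 inner start: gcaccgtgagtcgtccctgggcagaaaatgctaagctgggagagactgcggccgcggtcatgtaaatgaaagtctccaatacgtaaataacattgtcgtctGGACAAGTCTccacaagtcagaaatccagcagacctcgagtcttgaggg

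The inner window of SESN1 shown here held a p53 half-site and the outer window none. Another inner start of SESN1, 85.267 kb in, had no match to either motif. DRAM1, a lysosomal membrane protein that modulates autophagy, spans 134.551 kb (chr12:101877580-102012130, plus strand). It had 16.7, 17.2 and 15.8 CPM in control and 27.4, 29.2 and 22.1 CPM with teriflunomide. With lurbinectedin it reached 56.0, 61.6 and 67.2 CPM, and in the combination 69.8, 49.9 and 71.2 CPM. The 4 groups formed 3 steps, since lurbinectedin and the combination overlapped. Its rise in the combination against teriflunomide was 1.36 (log2, SE 0.102, edgeR adjusted p = 4.17e-08).

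ABCA12, a lipid transporter best known from the skin barrier, spans 207.085 kb (chr2:214931542-215138626, minus strand), among the longest of the 33 genes. Control libraries held 5.68, 5.83 and 6.19 CPM and teriflunomide libraries 14.9, 15.3 and 15.6 CPM. Lurbinectedin libraries held 23.1, 27.2 and 30.4 CPM and combination libraries 43.2, 25.8 and 34.1 CPM. Each group lay above the one before it except that the combination overlapped lurbinectedin, and teriflunomide alone more than doubled the mean. The combination was 1.23 above teriflunomide (log2, SE 0.152, edgeR adjusted p = 6.23e-06). The windows before its outer start (chr2:215138627-215138776) and before a start 106.54 kb further in (chr2:215032087-215032236) are shown as the counterpart of SESN1, since here the outer one holds the p53 half-site.
ABCA12 outer start: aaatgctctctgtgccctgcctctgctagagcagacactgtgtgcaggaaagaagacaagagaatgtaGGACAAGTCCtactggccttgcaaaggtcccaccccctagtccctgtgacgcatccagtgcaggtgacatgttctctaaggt
ABCA12 inner start: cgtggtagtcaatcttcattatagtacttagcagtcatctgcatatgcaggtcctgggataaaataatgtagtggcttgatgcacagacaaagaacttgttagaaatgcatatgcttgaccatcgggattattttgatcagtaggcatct

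FBXW7, the substrate-binding subunit of a ubiquitin ligase that marks cyclin E and MYC for degradation, spans 215.549 kb (chr4:152320544-152536092, minus strand). It had 32.0, 33.2 and 33.7 CPM in control and 40.5, 40.3 and 39.8 CPM with teriflunomide. It had 104, 106 and 104 CPM with lurbinectedin and 115, 124 and 101 CPM in the combination. The replicates were tight, and the libraries with lurbinectedin were all above those without it. In the combination against teriflunomide the log2 rise was 1.60 (SE 0.150, edgeR adjusted p = 4.28e-07). FBXW7 has starts 183.266 kb apart in RefSeq. The outer window (chr4:152536093-152536242) has no match to either motif, and that of a start 153.563 kb further in (chr4:152382530-152382679) has TATAAA on the other strand. The starts 0.851 and 183.266 kb in, not shown, have no match either.
FBXW7 outer start: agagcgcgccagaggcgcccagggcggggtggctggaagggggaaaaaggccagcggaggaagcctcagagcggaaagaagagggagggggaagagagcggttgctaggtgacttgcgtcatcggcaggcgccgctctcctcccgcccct
FBXW7 inner start: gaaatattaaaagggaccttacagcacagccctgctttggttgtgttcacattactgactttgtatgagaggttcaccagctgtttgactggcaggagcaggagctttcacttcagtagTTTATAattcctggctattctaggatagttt

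ZMAT3, a zinc finger protein that binds RNA, had 101, 107 and 99.5 CPM in control, 185, 205 and 219 CPM with teriflunomide, 218, 240 and 220 CPM with lurbinectedin, and 329, 273 and 228 CPM in the combination. Teriflunomide and lurbinectedin alone gave overlapping levels, both above control. The rise in the combination against teriflunomide was 0.53 (log2, SE 0.165, edgeR adjusted p = 0.0103). SUSD6, a transmembrane protein, had 13.6, 14.7 and 13.8 CPM in control, 20.3, 24.1 and 13.9 CPM with teriflunomide, 31.1, 35.0 and 39.6 CPM with lurbinectedin, and 37.8, 23.1 and 43.2 CPM in the combination. Its lowest teriflunomide and combination libraries were those with the high mitochondrial share, and the 2 groups overlapped. SUSD6 rose by 0.92 (log2, SE 0.152, edgeR adjusted p = 9.79e-05).

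Of the 118 listed p53 targets in the files, 110 were tested in the combination against teriflunomide, with 83 called higher, 12 lower and a median log2 fold change of 1.52, where 35.2% of all genes tested were called higher and 35.8% lower. In the span class of the 33 genes the list had 15 genes with a median of -0.08. The 6 genes above were called higher. Of the other 9, TGFA (-1.62), CYFIP2 (-0.82) and CSNK1G1 (-1.19) fell, and 6 were not called: TP73 (-0.23), PRDM1 (-0.30), LRP1 (-0.27), KITLG (-0.08), APAF1 (-0.08) and PRKX (-0.17). The 6 were chosen for a rise with lurbinectedin, so their count is not set against that of the other 9.

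SGK1, a kinase induced by serum, glucocorticoids and cell stress that acts on ion transport and survival, had the largest change. It spans 148.865 kb (chr6:134169248-134318112, minus strand). Control libraries were at 1.89, 1.90 and 1.53 CPM and teriflunomide libraries at 3.96, 2.61 and 1.90 CPM. Lurbinectedin libraries were at 46.6, 44.6 and 46.1 CPM and combination libraries at 41.6, 52.5 and 35.3 CPM. The libraries with and without lurbinectedin were separated by a wide gap, lurbinectedin alone overlapped the combination, and the lowest teriflunomide library was level with the highest control library. In the combination SGK1 was 4.07 above teriflunomide (log2, SE 0.251, edgeR adjusted p = 7.43e-09). RefSeq starts of SGK1 lie 140.251 and 143.246 kb in from the outermost one, and its shortest annotated transcript covers 4.759 kb. The window before the outermost start (chr6:134318113-134318262) is shown because it is the only one that commits a polymerase to the whole span; it holds TATAAA on the other strand.
SGK1 outer start: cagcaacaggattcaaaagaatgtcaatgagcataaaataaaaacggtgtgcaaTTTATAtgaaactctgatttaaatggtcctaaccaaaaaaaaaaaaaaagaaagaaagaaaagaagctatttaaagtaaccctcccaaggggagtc

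MORC4, a nuclear ATPase of the MORC family, spans 186.342 kb (chrX:106813871-107000212, minus strand). It had 1.63, 1.11 and 1.17 CPM in control and 2.24, 1.84 and 2.41 CPM with teriflunomide. It had 20.5, 23.1 and 25.6 CPM with lurbinectedin and 23.9, 20.5 and 34.4 CPM in the combination. All 4 groups but the last pair were apart. The rise in the combination against teriflunomide was 3.65 (log2, SE 0.197, edgeR adjusted p = 2.11e-09). Although the count tables give MORC4 a span of 186.342 kb, its longest protein-coding transcript in the GENCODE 29 basic set covers 59.511 kb.

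CTSV, the lysosomal protease cathepsin V, had 9.65, 9.41 and 9.26 CPM in control, 11, 10.3 and 10.3 CPM with teriflunomide, 43.6, 47.6 and 49.5 CPM with lurbinectedin, and 44.3, 47.9 and 55.4 CPM in the combination. The groups with and without lurbinectedin did not overlap, and the fitted rise was 2.31 (log2, SE 0.130, edgeR adjusted p = 2.81e-09). CTSV is a close paralog of CTSL, and the treatment of reads that map to several places is not given in the sources used here. NOPCHAP1, a chaperone in the assembly of small nucleolar ribonucleoproteins, went from 53.1, 53 and 53.7 CPM in control to 294, 284 and 272 CPM with lurbinectedin. It was at 55.3, 58.5 and 48.9 CPM with teriflunomide and at 240, 228 and 196 CPM in the combination. Its combination libraries all lay below its lurbinectedin libraries, and both groups far above the others. NOPCHAP1 rose by 2.14 in the combination against teriflunomide (log2, SE 0.131, edgeR adjusted p = 7.01e-09).

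RSRP1, a protein rich in arginine and serine, had 16.7, 12.8 and 15.9 CPM in control and 13.1, 14.3 and 12.1 CPM with teriflunomide. It had 59.3, 73.8 and 60.5 CPM with lurbinectedin and 73.2, 83.8 and 86.1 CPM in the combination. Control and teriflunomide overlapped, and so did the groups with lurbinectedin, but only at 1 library. Its rise was 2.72 (log2, SE 0.152, edgeR adjusted p = 2.79e-09). RSRP1 shares 426 exon bases with another gene on the same strand, so its counts may mix reads.

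NEDD9, a scaffold protein of focal adhesions, spans 199.051 kb (chr6:11183298-11382348, minus strand). It had 1.63, 2.43 and 1.92 CPM in control, 2.20, 2.98 and 2.17 CPM with teriflunomide, 7.71, 6.21 and 9.99 CPM with lurbinectedin, and 9.16, 8.60 and 9.83 CPM in the combination. The libraries with lurbinectedin were apart from those without it, control and teriflunomide overlapped, and the rise was 2.0 (log2, SE 0.198, edgeR adjusted p = 7.29e-07). The window before its outermost start (chr6:11382349-11382498) carries a p53 half-site and is shown because NEDD9 is on no p53 list used here.
NEDD9 outer start: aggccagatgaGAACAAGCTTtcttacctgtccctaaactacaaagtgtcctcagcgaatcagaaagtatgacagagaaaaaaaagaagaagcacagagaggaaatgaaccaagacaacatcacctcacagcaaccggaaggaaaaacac

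LBH, a nuclear cofactor of transcription, had 3.64, 2.93 and 3.32 CPM in control, 4.98, 4.32 and 2.44 CPM with teriflunomide, 14.6, 13.9 and 14.8 CPM with lurbinectedin, and 15.6, 12.9 and 17.8 CPM in the combination. The lowest teriflunomide library was again replicate 3. LBH rose by 2.08 (log2, SE 0.162, edgeR adjusted p = 6.60e-08). FHL2, a LIM domain adaptor of transcription and the cytoskeleton, had 15.5, 15.0 and 13.8 CPM in control, 17.6, 17.7 and 9.24 CPM with teriflunomide, 28.7, 29.7 and 32.0 CPM with lurbinectedin, and 34.0, 24.5 and 36.1 CPM in the combination. The libraries with lurbinectedin did not overlap those without it, and both libraries with a high mitochondrial share were the lowest of their groups. Its rise was 1.19 (log2, SE 0.149, edgeR adjusted p = 7.42e-06).

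TERF2IP, the shelterin subunit RAP1 at telomeres, had 56.2, 54.1 and 52.4 CPM in control, 64.6, 63.4 and 78.7 CPM with teriflunomide, 161, 146 and 162 CPM with lurbinectedin, and 160, 179 and 151 CPM in the combination. Here teriflunomide replicate 3 was the highest of its group. TERF2IP rose by 1.33 (log2, SE 0.178, edgeR adjusted p = 1.33e-05). RRM2, the small subunit of ribonucleotide reductase, which makes deoxyribonucleotides, had 249, 263 and 248 CPM in control, 286, 259 and 210 CPM with teriflunomide, 538, 612 and 628 CPM with lurbinectedin, and 678, 539 and 639 CPM in the combination. Control and teriflunomide overlapped, as did the groups with lurbinectedin, which were all higher. RRM2 rose by 1.39 (log2, SE 0.0913, edgeR adjusted p = 1.19e-08). RRM2 has processed pseudogenes elsewhere in the genome, so some of its reads may have been ambiguous.

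CEMIP2, a hyaluronidase of the cell surface, had 19.7, 21.5 and 23.0 CPM in control, 57.1, 51.5 and 39.5 CPM with teriflunomide, 51.9, 53.8 and 59.2 CPM with lurbinectedin, and 66.5, 58.2 and 65.7 CPM in the combination. Either drug alone more than doubled the mean, and those groups overlapped. CEMIP2 rose in the combination against teriflunomide by 0.46 (log2, SE 0.108, edgeR adjusted p = 0.00163). INPP5D, an inositol phosphatase best known from blood cells, had 5.94, 4.01 and 5.18 CPM in control, 12.3, 17.5 and 10.8 CPM with teriflunomide, 10.4, 12.1 and 13.3 CPM with lurbinectedin, and 13.5, 7.23 and 14.9 CPM in the combination. The 3 groups with a drug overlapped, and all of their libraries were above control. INPP5D was the one gene of the 33 not called in the combination against teriflunomide, at -0.12 (log2, SE 0.189, edgeR adjusted p = 0.597), and without combination replicate 2 the value was 0.070 (0.734). The summed leukocyte markers were 0.0715 to 0.334 CPM in control, 0.0319 to 0.134 CPM with teriflunomide, 1.51 to 2.41 CPM with lurbinectedin and 1.86 to 2.16 CPM in the combination, with CD14 the largest part in the groups with lurbinectedin and PTPRC at or below 0.103 CPM in every library.

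Among noncoding genes, KCNQ1OT1, the imprinted antisense transcript of the KCNQ1 locus, is a single exon of 91.667 kb (chr11:2608328-2699994, minus strand). Its replicates were spread widely: 21.3, 15.3 and 21.3 CPM in control, 13.2, 31.8 and 42.3 CPM with teriflunomide, 71.5, 76.9 and 49.1 CPM with lurbinectedin, and 62.4, 73.7 and 52.0 CPM in the combination. The groups with lurbinectedin were above the others in every library, and teriflunomide spanned control on both sides. The rise was 1.17 (log2, SE 0.370, edgeR adjusted p = 0.0112), and without combination replicate 2 it was 0.92 with an edgeR adjusted p of 0.0570. ENSG00000285756, annotated as a long intergenic noncoding RNA on chromosome X, had 9.01, 8.23 and 8.73 CPM in control, 7.25, 9.11 and 6.32 CPM with teriflunomide, 28.4, 31.1 and 31.3 CPM with lurbinectedin, and 28.6, 28.9 and 33 CPM in the combination. It rose by 2.10 (log2, SE 0.122, edgeR adjusted p = 3.63e-09), and 942 of its exon bases are shared with a gene on the other strand. ALOX12-AS1, antisense to the lipoxygenase gene ALOX12, rose by 1.73 (log2, SE 0.159, edgeR adjusted p = 3.11e-07), from 2.24, 2.35 and 1.93 CPM with teriflunomide to 6.90, 5.91 and 7.53 CPM. It shares 491 exon bases with ALOX12 on the other strand, and reads of the 2 genes cannot be told apart where they overlap, since strand use is not stated. ZNF670-ZNF695, a read-through transcript of neighbouring zinc finger genes, is annotated as protein-coding and is given here for its shared exons. It rose by 1.74 (log2, SE 0.228, edgeR adjusted p = 1.11e-05), from 0.799, 0.972 and 0.903 CPM with teriflunomide to 2.77, 2.80 and 2.84 CPM in the combination. Other genes hold 29.8% of its exon bases, 734 of them ZNF695 on the same strand.

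ENSG00000286406 on chromosome 22 had no annotated type in GENCODE 29. It had 4.45, 3.18 and 4.04 CPM in control, 6.13, 7.24 and 7.34 CPM with teriflunomide, 7.33, 8.66 and 8.47 CPM with lurbinectedin, and 9.42, 8.49 and 9.18 CPM in the combination. The combination was above teriflunomide in every library by a small margin, 0.46 (log2, SE 0.162, edgeR adjusted p = 0.0200). That call was lost without teriflunomide replicate 1 (0.34, edgeR adjusted p = 0.0997), without teriflunomide replicate 2 (0.42, 0.0654) and without combination replicate 2 (0.40, 0.0565).

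The remaining 10 genes complete the set. CRISPLD2 (log2 fold change 1.92 in the combination against teriflunomide), which encodes a secreted cysteine-rich protein, and NIPAL1 (1.88), a magnesium transporter, were the highest of the protein-coding ones. PSTPIP2 (1.38), an F-BAR protein that shapes membranes, SPAG1 (1.20), a factor in the assembly of ciliary dynein arms, CDC42EP3 (0.69), an effector of CDC42, and FRMPD2 (0.65), a protein with FERM and PDZ domains, followed. GUSBP1 (1.80), a transcribed pseudogene of beta-glucuronidase with copies elsewhere, another transcribed pseudogene with no symbol (1.36), and the antisense RNA MAILR (0.74) are noncoding. The last is 1 member without a symbol in the gene name table. All 10 were called higher by edgeR. FRMPD2 overlapped between the groups, at 4.06, 3.99 and 2.89 CPM with teriflunomide against 5.88, 3.18 and 7.36 CPM in the combination, and was not called without combination replicate 3 (0.46, edgeR adjusted p = 0.0533).

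The 33 genes are 1.33% of their span class, and the lists other than p53 targets hold 8 to 100 genes of that class. Counts of 0, 1 or 2 on such lists are near that share, and nothing is read from them. Of 12 lists in all, NF-kB and inflammation, transcription factors, chromatin regulators, small GTPase regulators, adhesion and matrix, and autophagy and membrane traffic contained 0 of them. The kinase list held 1 (SGK1), the ubiquitin ligase list 1 (FBXW7) and the zinc finger list 1 (ZNF670-ZNF695). Transporters and channels matched 2 by symbol, ABCA12 and KCNQ1OT1, of which the second is an RNA and no channel, and noncoding or unnamed genes matched 5. That last list also goes by symbol. It takes in the member without a symbol whatever its type and misses KCNQ1OT1, GUSBP1 and MAILR, so it is no count of the noncoding genes. Over the whole span class 86.4% of genes were called lower in the combination against teriflunomide, and the lists are given beside that share. Called lower were 8 of 8 NF-kB genes, 45 of 52 transcription factors, 44 of 50 chromatin regulators, 45 of 48 ubiquitin ligase genes and 75 of 81 kinases and phosphatases. Also called lower were 47 of 49 GTPase regulators, 44 of 47 adhesion genes, 48 of 51 autophagy and traffic genes, 33 of 46 zinc finger genes, 64 of 76 transporters and channels, and 67 of 100 noncoding or unnamed genes.

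The annotation of the genes, which the rule did not use apart from the span, was compared next without a test; this description was chosen after the data were seen. The span of a gene in the count tables runs from its first to its last exon over all transcripts. Transcripts were taken from the GENCODE 29 basic set. Where a gene had protein-coding transcripts only these were used, and otherwise all of them; they are called basic transcripts here. The shortest basic transcript had a median span of 28.2 kb in the 32 of the 33 genes that had one, against 78.5 kb in 2444 other genes of the class. It was under 30 kb in 16 of the 32 against 21.9% of the others. In 12 genes (37.5%) even the longest basic transcript was under 80 kb, against 12.9% of the others. RefSeq gave 10 of 29 matched genes (34.5%) a span under 80 kb, against 11.5%.

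The gap between the spans was wide in several genes. TERF2IP spans 114.1 kb in the count tables and its one basic transcript 9.647 kb. CTSV spans 126.88 kb and its longest basic transcript 9.965 kb, RRM2 91.028 kb and 10.721 kb, RSRP1 95.965 kb and 5.283 kb, and NIPAL1 126.032 kb and 23.4 kb. Among the p53 targets, DRAM1 has 134.551 kb and 46.273 kb and ZMAT3 112.095 kb and 55.057 kb. The longest basic transcripts of SESN1 (108.383 kb), ABCA12 (206.887 kb), FBXW7 (215.52 kb) and SUSD6 (103.547 kb) were over 80 kb. By contrast INPP5D (147.505 kb), SUSD6 (103.547 kb), PSTPIP2 (88.722 kb), KCNQ1OT1 (91.667 kb), FRMPD2 (95.199 kb) and ZNF670-ZNF695 (111.15 kb) have no basic transcript shorter than the values given. RefSeq gave spans near the short values to TERF2IP (9.66 kb), CTSV (9.967 kb), NIPAL1 (23.402 kb), DRAM1 (46.033 kb) and ZMAT3 (55.291 kb). To RRM2 (88.443 kb) and RSRP1 (96.006 kb) it gave spans near those of the count tables. Of the 60649 gene identifiers 37318 had the same version in GENCODE 29, so these gaps can also reflect differing annotations. Counts are per gene, so which transcript was counted cannot be told apart in these tables.

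**Figure D4:**
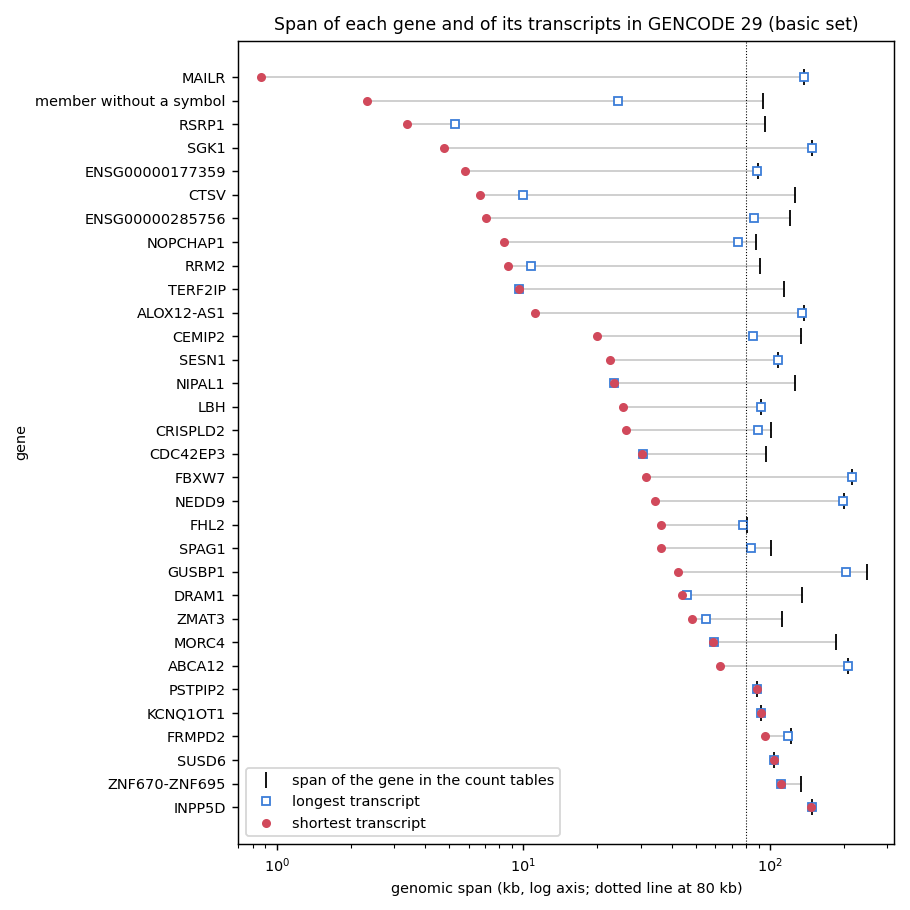
Genomic span in kb (x axis, log scale) of 32 of the 33 genes (y axis, ordered by shortest transcript) in the count tables (vertical ticks) and of their longest (open squares) and shortest (filled circles) transcripts in the GENCODE 29 basic set; the dotted line marks 80 kb. Where a gene had protein-coding transcripts, only these were taken. In 26 genes the shortest transcript taken lies left of the line, and in 6 every one lies right of it.

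The same property was then set against the calls of the whole span class in the combination against teriflunomide. Called higher were 18.5% of the genes whose shortest basic transcript was under 10 kb, 10.2% at 10 to under 30 kb, 5.39% at 30 to under 80 kb and 1.0% at 80 kb and over. Most genes of each class were called lower: 64.1%, 73.7%, 85.5% and 94.9% in the same order, with median log2 fold changes of -0.96, -0.98, -1.23 and -1.83. With a RefSeq span under 80 kb 20.9% were called higher and 55.7% lower, and otherwise 2.94% and 90.9%. The 33 genes are part of these counts and make up 4.03% of the first class and 0.50% of the last. Other properties, as values for the 33 genes against the rest of the class, were a median span of 114.1 against 124 kb, 14 against 20 exon blocks, a longest gap between exons of 35.9% against 27.9% of the span, and exon bases shared with another gene in 54.5% against 52.5%. They lay on 17 chromosomes, and 60.6% were on the minus strand against 47.7% of the others. Protein-coding genes were 26 of the 32 with a type (81.2%), against 94.8%.

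In the promoter windows of 300 bases, 250 before and 50 after the start, TATAAA was found in 21.4% of the 42 windows of these genes and in 11.5% of the 35116 windows of all genes, and a p53 half-site in 16.7% against 6.63%, on either strand. A pair of p53 half-sites up to 13 bases apart was in 0 of the 42 and 0.0285% of all. The serum response element was in 9.52% against 1.29%, CCAAT in 38.1% against 34.6% and CACGTG in 9.52% against 7.26%. TGANTCA was in 2.38% against 7.71% and TGACGTCA in 0 against 1.85%. Counted once per gene, TATAAA was in 6 of the 24 genes against 14.0% of 27305 genes. The p53 half-site was in 6 of 24 against 8.06%, and the serum response element in 2 of 24 against 1.60%. Of the genes with a p53 half-site, SESN1 and ABCA12 are on the p53 list, and NEDD9, MORC4, CTSV and ALOX12-AS1 are not. No window of DRAM1, ZMAT3, SUSD6 or FBXW7, which are on it, had one. A serum response element can contain TATAAA or CCAAT, the other motifs do not contain each other, and neighbouring starts of a gene share bases, so a match can be counted more than once, and a match is a description of letters and not of binding.

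The comparison of teriflunomide with control asks what teriflunomide alone does to these genes. It shares the control libraries with the choice of the genes, so a low control value raises both ratios. With edgeR, 14 of the 33 genes were called higher and 0 lower, where 3.88% of all genes tested were called higher and 2.13% lower. The median log2 fold change was 0.53, against 0.13 in the other long genes and 0.03 in all genes. INPP5D (1.5, SE 0.199, edgeR adjusted p = 0.00128), ABCA12 (1.47, SE 0.160, 0.000374), CEMIP2 (1.28, SE 0.111, 5.55e-05) and ZMAT3 (1.09, SE 0.167, 0.00282) changed most. SESN1 (0.85) and DRAM1 (0.74) also rose, so that 4 of the 6 p53 targets were called, while FBXW7 (0.38, edgeR adjusted p = 0.138) and SUSD6 (0.53, 0.0580) were not. The other 8 calls were FRMPD2, CRISPLD2, CDC42EP3, ENSG00000286406, SPAG1, MORC4, NIPAL1 and PSTPIP2, at 0.56 to 1.02. SGK1 (0.74, 0.120) was not called, and NOPCHAP1, CTSV and RRM2 had values of 0.07 to 0.25. Teriflunomide libraries were all above control in 18 genes, against 15.5% of all genes. The 14 calls dropped to 8, 8 and 9 when control replicate 1, 2 or 3 was left out, to 7 when libraries were scaled by their totals alone and to 8 when only the groups compared entered the fit. Without teriflunomide replicate 3 they were 15, of which 13 were among the 14.

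The comparison of the combination with lurbinectedin asks whether teriflunomide adds to lurbinectedin, and it shares the lurbinectedin libraries with the rule. EdgeR called 0 of the 33 genes and 0.0% of the 16683 genes in either direction. DESeq2 also called 0 of the 33, and 2 of the 33 had an unadjusted p under 0.05. The median log2 fold change was -0.01, with a range of -0.40 in NOPCHAP1, which had the smallest edgeR adjusted p of 0.188, to 0.40 in SPAG1. Without combination replicate 2, NOPCHAP1 was called lower (-0.54, SE 0.118, edgeR adjusted p = 0.0480). A p that misses the threshold does not show that the levels were alike.

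**Figure D5:**
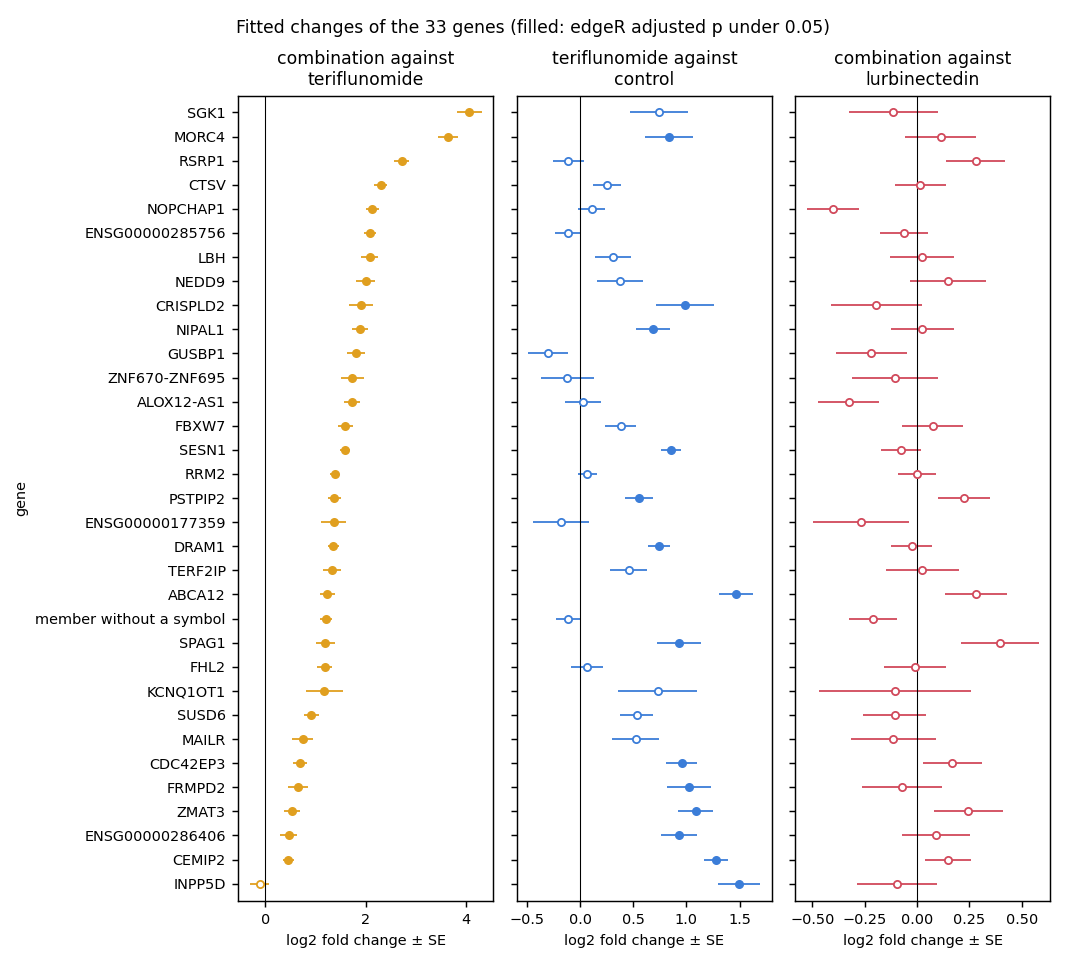
Log2 fold changes (x axes) with their approximate standard errors (bars) of the 33 genes (y axis, ordered by the first panel) in 3 comparisons. Filled points have an edgeR adjusted p under 0.05. All but INPP5D are filled in the combination against teriflunomide, 14 are filled in teriflunomide against control, and none in the combination against lurbinectedin.

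The interaction compares the effect of lurbinectedin with and without teriflunomide, and it contains all libraries of the rule. It subtracts the rise with lurbinectedin over control for which the genes were chosen. The choice thus favours negative values and calls of them, so direction and calls are given as a description only. The median over the 33 genes was -0.53, against 0.15 in the other long genes. With edgeR 5 of the 33 genes had an adjusted p under 0.05 with a negative value, a smaller rise in the presence of teriflunomide, and 0 with a positive one, where 0.222% and 0.036% of all genes tested were called. These were INPP5D (-1.59, SE 0.275, edgeR adjusted p = 0.0308), ABCA12 (-1.19, SE 0.218, 0.0444), CEMIP2 (-1.13, SE 0.154, 0.0113), SESN1 (-0.93, SE 0.135, 0.0139) and DRAM1 (-0.77, SE 0.143, 0.0444). All 5 had been called higher with teriflunomide alone and had combination libraries that overlapped the lurbinectedin libraries in CPM. SGK1 (-0.85, 0.412) and the 2-fold-limit gene FHL2 (-0.08, 0.943) were not called. No call held throughout: 0 remained without any 1 of the control or lurbinectedin libraries, 9 were made without teriflunomide replicate 3 and 3 without combination replicate 2. When libraries were scaled by their totals alone 0 were called; under it the median of all genes moved from 0.02 to 0.16 and the share of higher calls among all calls from 14.0% to 33.3%.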

How the data were processed

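The labels put 12 RNA sequencing libraries of SBC3 spheroids in 4 groups of 3 by treatment. The RNA came from an RNeasy Plus Mini kit and the sequencing libraries from a KAPA mRNA HyperPrep kit, per the labels. The deposited values are raw read counts per gene, 1 file per library with 60649 genes. Per the submitters' processing notes, the tools were fastp 0.23.2, STAR 2.7.9 and featureCounts of Subread, with the build hg38. Strand use, annotation release and the treatment of multi-mapping reads are not given in the sources used here.

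CPM was computed as counts over the library total. Span is the largest end minus the smallest start plus 1. Symbols came from a gene name table, which matched 60463 identifiers (99.7%). Tests used edgeR 4.0.16 in R 4.3.3 (limma 3.58.1): filterByExpr, TMM, 1 mean per group over all 12 libraries, robust quasi-likelihood fit, Benjamini-Hochberg adjustment over 16683 genes. SE is an approximate standard error of a log2 fold change, taken as its absolute value over the square root of the quasi-likelihood F statistic. The biological coefficient of variation was 14.5%. The test was tried on simulated counts before use. Alternatives were other scalings, filters and thresholds, TREAT, DESeq2 1.42.0, a replicate block, fewer groups, and leaving out each library. Transcripts came from the GENCODE 29 basic set, only protein-coding ones where a gene had any, and promoter windows from RefSeq (GRCh38.p14).

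The 33 genes and the gene lists were chosen with earlier results of these data known. Named genes were, among those with a symbol or identifier to print, all p53 targets, the 12 with the highest lurbinectedin CPM, the 8 with the largest change in the combination against teriflunomide among those with at least 5 CPM, those not called in it, the 4 with the largest calls in teriflunomide against control and in the interaction, the 3 on each side of the 2-fold limit, and 2 from each other list. The remaining genes are named to complete the set. The values of 1 gene that met the rule for the set are not reported singly here.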

Additional observations from a re-analysis of the deposited data

Results flagged for a closer look

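In 5 genes edgeR's test of the difference between the effects of lurbinectedin with and without teriflunomide gave an adjusted p under 0.05. The test draws on the control and lurbinectedin libraries that chose these genes for a large rise with lurbinectedin. The choice thus favoured a negative difference and a call of it, so direction and calls are a description only. None of the 5 was called when any single control or lurbinectedin library was left out. The differences in log2 fold change were -1.59 for INPP5D, -1.19 for ABCA12, -1.13 for CEMIP2, -0.93 for SESN1 and -0.77 for DRAM1. Over 18 settings each, the difference stayed below 0 and was called in 8 for INPP5D (-1.71 to -1.40), 6 for ABCA12 (-1.33 to -1.02), 10 for CEMIP2 (-1.19 to -1.0), 10 for SESN1 (-0.98 to -0.80) and 3 for DRAM1 (-0.81 to -0.62). The largest adjusted p-values over these settings, from edgeR or DESeq2, were 0.329 for INPP5D, 0.278 for ABCA12, 0.186 for CEMIP2, 0.239 for SESN1 and 0.436 for DRAM1.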

How the results depend on the processing

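The set had 33 genes as defined, 20 at a control mean of at least 5 CPM, 15 when only genes whose exons share no base with another gene were kept, and 32 to 36 with 1 library left out. CPM on TMM library sizes gave 45, of which 31 were among the 33. CPM over nuclear counts only gave 42, with all 33 among them. In the combination against teriflunomide 32 genes were called higher, 14 among the 15 without shared exon bases, 29 at an adjusted p under 0.01, 25 by TREAT and 30 to 32 with 1 library left out. The median of 1.38 was 1.30 with library size only and 1.34 to 1.56 with 1 library left out, the highest without teriflunomide replicate 3. Of 416 values of single genes under alternatives in that comparison, 406 kept direction and call, and 8 lost the call (5 in ENSG00000286406, 2 in FRMPD2, 1 in KCNQ1OT1). INPP5D, at -0.12 and not called, ranged from -0.24 to 0.070 with 1 library left out; it was 0.02 without teriflunomide replicate 2 and 0.070 without combination replicate 2. In teriflunomide against control, the 14 calls were 7 with library size only, 8 with only the groups compared, 8 at an adjusted p under 0.01, 3 by TREAT and 8 to 15 with 1 library left out. In the combination against lurbinectedin 0 to 1 were lower with 1 library left out. In the interaction, the 5 lower calls were 0 with library size only, 0 under 0.01, 0 by TREAT, 8 by DESeq2 and 0 to 9 with 1 library left out. The cause of these shifts was not tested, beyond fewer genes where exons are shared and fewer samples where a library is left out.

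Same-numbered libraries of different groups correlated at -0.40 to 0.14 in their deviations from the group mean, and 1 of 18 pairs was over 0.1. Of 12 libraries 0 correlated best with their own number, so no pairing by number was seen. Teriflunomide replicate 3 and combination replicate 2, both with a high mitochondrial share, correlated at 0.28. Such libraries under different numbers can hide a pairing, so the check cannot exclude one. With the replicate block, 32 genes were called in the combination against teriflunomide (median 1.38), 10 in teriflunomide against control, 0 in the combination against lurbinectedin and 1 in the interaction.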
